A study of Mus musculus with 36 samples.

Results

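The potassium channel genes described here are the protein-coding mouse genes whose symbol is Kcn followed by class letters and a number. The choroid plexus gene Kcnj13 was left out of the set. The rule used gene symbols and no measured value, and it took 91 of the 56980 genes in the count table. By symbol they fell into 5 classes: 40 voltage-gated alpha subunits, 8 calcium- and sodium-activated channels, 14 inward rectifiers, 14 two-pore domain channels and 15 auxiliary subunits. Of the 91 genes, 85 passed the filter on low counts and were tested among 25601 genes. Kcna7, Kcna10, Kcne1, Kcnj1, Kcnk16 and Kcnk18 did not pass it, each with a mean of at most 0.071 CPM (counts scaled to a common library total).

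Potassium channels let potassium leave the cell along its gradient, and so set the resting potential, end the action potential and limit repetitive firing. Voltage-gated alpha subunits form a pore of 4 subunits that opens on depolarisation, calcium- and sodium-activated channels follow the ions that enter during firing, inward rectifiers and two-pore channels carry current near rest, and auxiliary subunits change the traffic and gating of the pore. Some alpha subunits, encoded by the Kcnf, Kcng, Kcns and Kcnv genes, do not conduct alone: they join conducting alpha subunits in mixed channels. In brain, astrocytes also clear potassium released by firing neurons, for which the inward rectifier encoded by Kcnj10 is known.

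RNA was measured by sequencing of polyA-selected libraries from the brains of 36 mice, 37 to 45 days old. The mice were labelled knockout (KO) or wild type (WT) for Ndufs4, which encodes a subunit of mitochondrial complex I, and received CP2, a complex I inhibitor, or vehicle by gavage on 3 consecutive days. Each title also carries the letter F or M, which gave 8 groups: KO CP2, KO vehicle, WT CP2 and WT vehicle with 5 samples each in F, and KO CP2 and WT CP2 with 5 samples each and KO vehicle and WT vehicle with 3 samples each in M. The series names hippocampus and cortex as the dissected tissue, while each sample is labelled brain. The labels do not give the knockout allele, the strain or the dose of CP2, and they do not say whether samples of a group came from separate litters. P-values therefore measure the spread between these samples.

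The libraries held 46124548 to 88559920 counts in genes. Ndufs4 lay at 27.4 to 39.1 CPM in the 18 KO samples and at 38.9 to 62.8 CPM in the 18 WT samples, so reads of the targeted gene were still counted in the KO samples and the ranges overlapped at their edge. Xist was at 439 to 798 CPM in the 20 F samples and at most 0.83 CPM in the M samples, except for the library labelled KO CP2 M L291 at 47.3 CPM. The 3 cerebellar markers Pcp2, Gabra6 and Cbln3 together reached 268 CPM in KO CP2 F L201, 51.5 CPM in KO CP2 F L233 and 15.0 CPM in WT vehicle F L278, and were at most 1.68 CPM in every other library. Counts of channel genes that rest on L201, L233 or L291 are therefore also given without them. Other regional markers also varied within groups. The summed striatal markers ranged over 348 to 1280 CPM in KO CP2 F and 265 to 1149 CPM in WT CP2 F. The summed choroid plexus markers ranged over 634 to 3495 CPM in KO CP2 F and 204 to 2807 CPM in KO CP2 M. In these tissue libraries, fewer cells of a type and less RNA per cell cannot be told apart.

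Together the 91 genes took a mean of 5300.1 CPM, and 77 of them had a mean of at least 1 CPM. Levels of different genes are compared here in CPM per kilobase (kb) of exon. Kcnab2, the Kvbeta2 subunit that accompanies Kv1 channels, had the highest mean level, at 80.0 CPM per kb. The astrocytic inward rectifier Kcnj10 followed at 54.2 CPM per kb, and Kcnj4, an inward rectifier of the Kir2 family, at 43.3 CPM per kb. Kcnk1, encoding the two-pore channel TWIK-1, led its class at 35.4 CPM per kb, and the calcium-binding subunit gene Kcnip3 had 30.5 CPM per kb. Among voltage-gated alpha subunits Kcnc4 had 25.5 CPM per kb and Kcnc1 25.2, both of the Kv3 family that serves fast firing, and Kcna2, an axonal Kv1 subunit, had 24.4. Kcnma1, the pore of the large-conductance calcium-activated (BK) channel, led its class at 14.6 CPM per kb. Class medians of the tested genes ranged only from 3.17 CPM per kb in the two-pore class to 6.22 CPM per kb in the voltage-gated class.

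**Figure D1:**
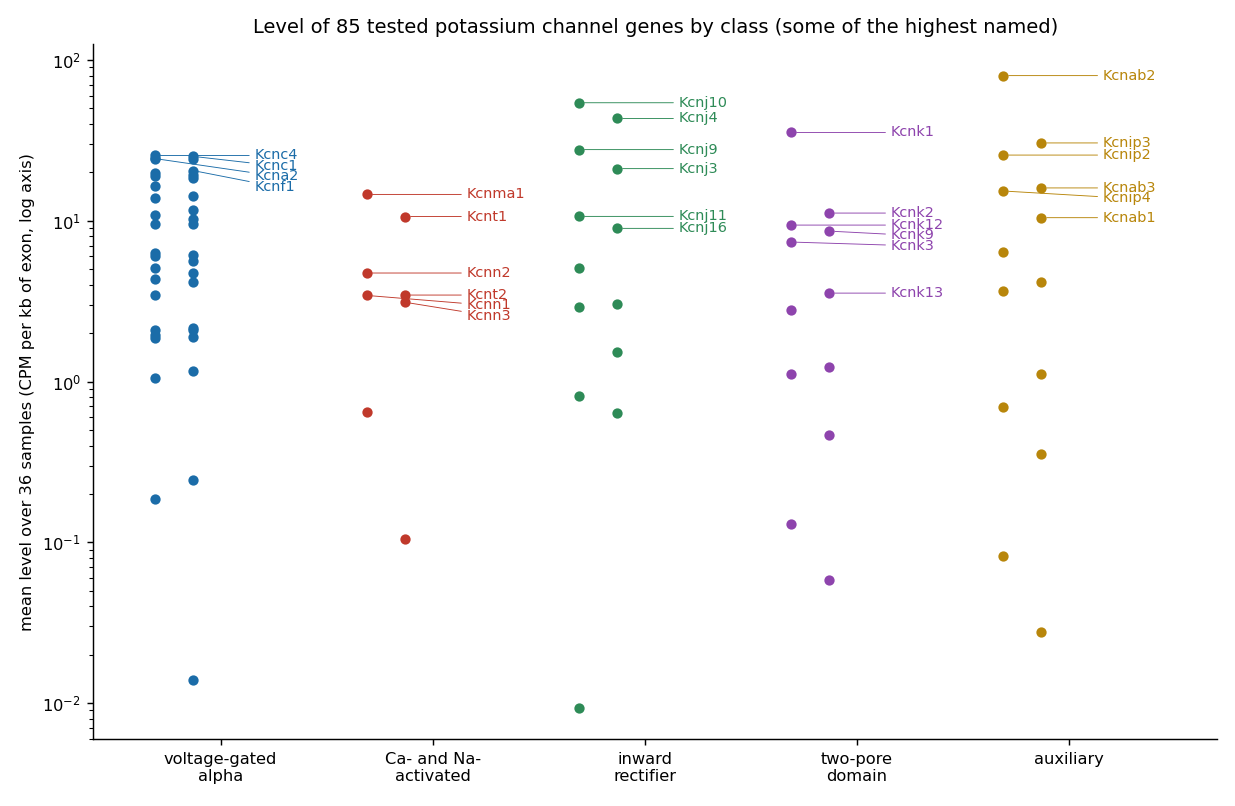
Mean level over 36 samples of the 85 tested potassium channel genes, in CPM per kb of exon on a log axis, by class; each point is 1 gene and lines lead to the names of some of the highest genes of each class. Kcnab2 is the highest point at 80.0 CPM per kb, and every class spans more than a factor of 100 between its highest and lowest gene.

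The first comparison asked how KO and WT brains differed when both had received CP2. Of the 85 tested channel genes, 14 were lower in KO and 0 were higher by edgeR's quasi-likelihood test at an adjusted p under 0.05, averaged over F and M; genes past this threshold are named as called. Over all 25601 genes tested, the same comparison called 11.6% in either direction, 5.54% higher and 6.07% lower, while the 14 channel genes are 16.5% of those tested. The median log2 fold change of the channel genes was -0.09, beside 0.01 over all genes, and 60 of the 85 had a negative value, beside 48.1% of all genes. The genes described here were Kcnf1, Kcng1, Kcng2, Kcng3 and Kcnv1 among voltage-gated subunits, Kcnn2, Kcnn3 and Kcnt2 among calcium- and sodium-activated channels, Kcnj6 and Kcnj9 among inward rectifiers, and Kcnk1 and Kcnk4 among two-pore channels. By class the 14 were 7 of 38, 3 of 8, 2 of 13 and 2 of 12, and none of the 14 tested auxiliary subunits was called. Differences were moderate, from 14.8% lower for Kcnk1 to 38.0% lower for Kcng1. The class median log2 fold change was -0.24 for calcium- and sodium-activated channels and -0.12 for voltage-gated subunits, and 0.01 for two-pore channels.

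**Figure D2:**
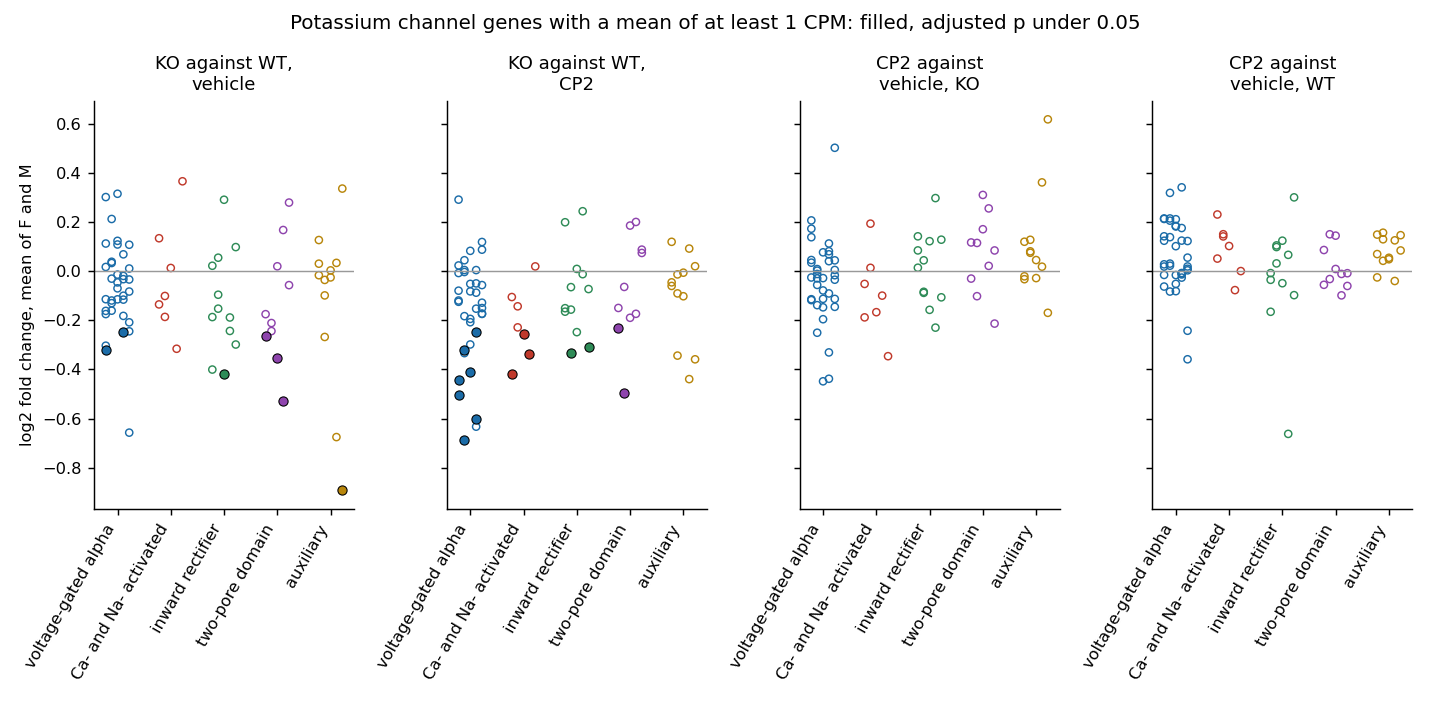
Log2 fold changes averaged over F and M in 4 comparisons for the channel genes with a mean of at least 1 CPM, by class; each point is 1 gene, filled where the adjusted p was under 0.05. All filled points lie below 0: 7 in KO against WT with vehicle and 14 in KO against WT under CP2, with none in the comparisons of CP2 with vehicle.

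Silent subunits made up 5 of the 14. The grouping of the silent subunits was chosen after their values were seen. Of its 10 genes, Kcnf1, Kcng1, Kcng2, Kcng3 and Kcnv1 were called lower and Kcng4, Kcns1, Kcns2, Kcns3 and Kcnv2 were not called. Kcng1 (ENSMUSG00000074575) had 27.7, 29.0, 31.0, 37.2 and 39.2 CPM in the 5 WT CP2 M samples. In the 5 KO CP2 M samples it had 15.6, 18.4, 19.0, 22.3 and 23.9 CPM, and the highest KO value was under the lowest WT value. In F, Kcng1 had 31.6, 31.7, 35.8, 36.3 and 41.0 CPM in WT CP2 and 16.8, 17.4, 20.9, 21.3 and 35.7 CPM in KO CP2. Here 4 KO samples lay below all WT samples and L234, at 35.7 CPM, lay among them. The log2 fold change averaged over F and M was -0.69 (SE 0.14, adjusted p = 0.00124).

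Kcng3 (ENSMUSG00000045053), a silent subunit at low abundance, had 4.31, 4.66, 5.53, 6.64 and 7.54 CPM in WT CP2 M and 2.44, 2.54, 2.60, 3.49 and 4.07 CPM in KO CP2 M. In F it had 3.30, 3.59, 3.71, 4.27 and 5.0 CPM in WT CP2 and 2.75, 2.88, 3.20, 3.35 and 4.15 CPM in KO CP2. The M groups did not overlap and the F groups did, and the mean log2 fold change was -0.60 (SE 0.15, adjusted p = 0.00642). Kcng2 showed the same arrangement: in M its WT CP2 samples had 13.6 to 15.2 CPM and its KO CP2 samples 7.28 to 11.3 CPM, with overlap in F (10.04 to 17.8 against 10.4 to 15.1 CPM). Its log2 fold change was -0.41 (SE 0.11, adjusted p = 0.0107).

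Kcnf1 (ENSMUSG00000051726) had the highest level per kb of the silent subunits. It had 101, 104, 121, 122 and 171 CPM in WT CP2 F and 51.6, 72.2, 72.8, 96.7 and 117 CPM in KO CP2 F, where L201 was lowest. In M the ranges were 91.7 to 130.1 CPM in WT CP2 and 74.5 to 104 CPM in KO CP2. Both pairs of groups overlapped, and the log2 fold change was -0.44 (SE 0.12, adjusted p = 0.0143). Kcnv1, a silent subunit found in cortex and hippocampus, lay at 71.6 to 101 CPM in WT CP2 F and 33.3 to 75.5 CPM in KO CP2 F, and at 63.9 to 82.2 and 42.7 to 66.9 CPM in the corresponding M groups. Its log2 fold change was -0.50 (SE 0.13, adjusted p = 0.0120). Kcnb2, a pore gene of the delayed rectifier type, had a log2 fold change of -0.19 and was not called (adjusted p = 0.0885).

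**Figure D3:**
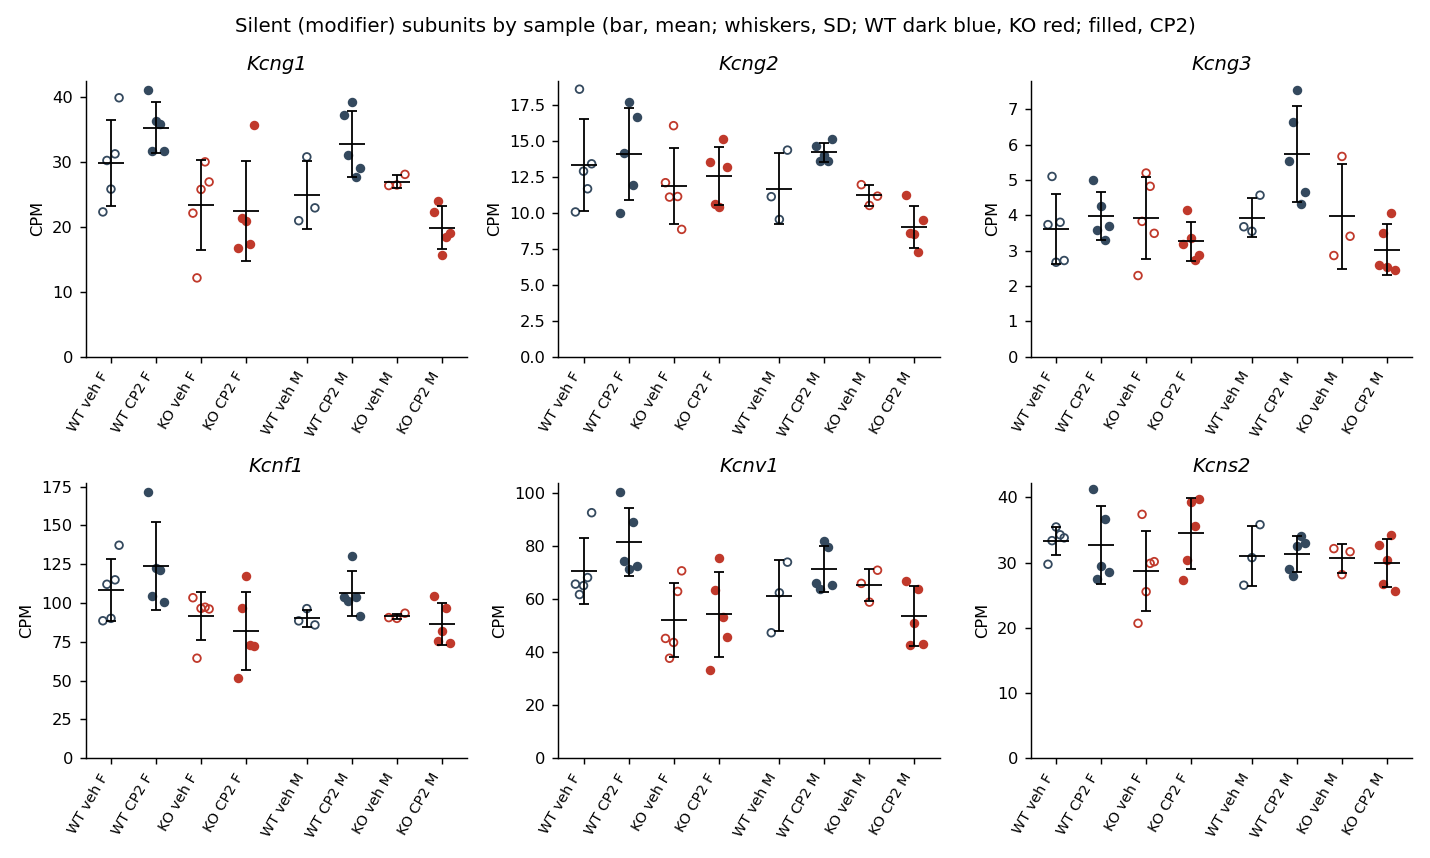
CPM by sample for the silent subunit genes Kcng1, Kcng2, Kcng3, Kcnf1, Kcnv1 and Kcns2 in the 8 groups (3 or 5 points each), with open symbols for vehicle and filled symbols for CP2, WT in dark blue and KO in red; the bar is the mean and the whiskers the SD. For Kcng1, Kcng2 and Kcng3 the filled red M points all lie below the filled blue M points, while in F they overlap.

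The upstream sequence of 3 of the 14 genes is shown as context for this set: the RefSeq promoter table (GRCm38.p6) held 8 of the 14, and these are the 3 of them with the largest fold change. The 250 bases before each start site are written 5' to 3' on the gene's strand, and capitals mark the GC box hexamer GGGCGG or its reverse complement CCGCCC. Kcng3 lies at chr17:83631896-83632145, Kcnk4 at chr19:6934516-6934765 and Kcnf1 at chr12:17176889-17177138, all on the minus strand.
Kcng3: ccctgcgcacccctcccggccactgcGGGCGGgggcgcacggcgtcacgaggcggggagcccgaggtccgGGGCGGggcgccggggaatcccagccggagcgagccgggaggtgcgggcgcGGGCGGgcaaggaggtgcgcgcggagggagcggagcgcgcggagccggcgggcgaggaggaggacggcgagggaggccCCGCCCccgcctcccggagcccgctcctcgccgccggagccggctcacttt
Kcnk4: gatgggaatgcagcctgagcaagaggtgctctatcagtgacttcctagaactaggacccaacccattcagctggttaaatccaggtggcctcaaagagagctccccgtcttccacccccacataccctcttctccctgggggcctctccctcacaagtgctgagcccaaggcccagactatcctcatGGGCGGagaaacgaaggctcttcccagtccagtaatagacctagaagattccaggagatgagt
Kcnf1: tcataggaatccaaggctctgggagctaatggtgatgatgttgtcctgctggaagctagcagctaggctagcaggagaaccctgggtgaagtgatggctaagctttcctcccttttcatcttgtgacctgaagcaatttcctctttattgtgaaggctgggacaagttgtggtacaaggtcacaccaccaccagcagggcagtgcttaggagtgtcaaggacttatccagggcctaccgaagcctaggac
The Kcng3 window held 4 GC boxes and a G and C content of 82.4%, the Kcnk4 window 1 and 54.8%, and the Kcnf1 window 0 and 51.2%. Of the 8 windows, 2 held a GC box, while 32.7% of the 32851 windows in the table did. The letters describe these windows and say nothing of which factors bind there.

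Several abundant voltage-gated genes had small values and were not called under CP2. Kcnq3, a Kv7 subunit, had a log2 fold change of -0.13 (adjusted p = 0.403). The others were Kcna1 of the axonal Kv1 family at 0.02 (adjusted p = 0.907), Kcna2 at -0.18 (adjusted p = 0.0829), Kcnc1 at -0.15 (adjusted p = 0.0659) and Kcnd2, the A-type Kv4.2 subunit, at -0.05 (adjusted p = 0.645).

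Among sodium- and calcium-activated channels, Kcnt2, the sodium-activated channel Slick, had 25.3, 25.4, 29.7, 31.9 and 35.03 CPM in WT CP2 M and 16.8, 19.1, 21.1, 22.7 and 24.8 CPM in KO CP2 M, without overlap. In F it had 24.3, 25.8, 26.5, 27.8 and 30.6 CPM in WT CP2 and 13.8, 19.3, 22.8, 23.5 and 27.3 CPM in KO CP2, with overlap, and its log2 fold change was -0.42 (SE 0.10, adjusted p = 0.00470). The small-conductance (SK) channel genes, whose channels carry the afterhyperpolarisation, gave smaller values: Kcnn3 had a log2 fold change of -0.34 (SE 0.092, adjusted p = 0.0125). Kcnn2 lay nearest the threshold, with a log2 fold change of -0.26 (SE 0.082, adjusted p = 0.0363). Kcnn1 was not called (log2 fold change -0.23, adjusted p = 0.0767), nor were Kcnma1 (-0.11, adjusted p = 0.282) and Kcnt1, the sodium-activated channel Slack (0.02, adjusted p = 0.939).

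Both inward rectifiers that were lower encode subunits of the GIRK channels, which open when they bind the beta-gamma subunits of activated G proteins. Kcnj9 (GIRK3) had 126, 131, 139, 142 and 143 CPM in WT CP2 M and 94.2, 102, 109, 116 and 119 CPM in KO CP2 M, without overlap. In F it had 112, 120.1, 129, 136 and 152 CPM in WT CP2 and 81.4, 82.4, 112, 114 and 125 CPM in KO CP2, with overlap. Its log2 fold change was -0.33 (SE 0.075, adjusted p = 0.00231). Kcnj6 (GIRK2) ranged over 22.7 to 27.6 CPM in WT CP2 F, 17.1 to 23.3 CPM in KO CP2 F, 24.0 to 34.4 CPM in WT CP2 M and 20.3 to 27.6 CPM in KO CP2 M, and its log2 fold change was -0.31 (SE 0.083, adjusted p = 0.0113). Kcnj3 (GIRK1) had a log2 fold change of -0.16 and was not called (adjusted p = 0.0758). Kcnj10 at -0.15 (adjusted p = 0.563) and the pore genes of ATP-sensitive channels, Kcnj11 at -0.06 (adjusted p = 0.579) and Kcnj8 at 0.20 (adjusted p = 0.393), were not called either.

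In the two-pore class Kcnk1 (ENSMUSG00000033998) had a narrower range in the KO CP2 samples than in the WT CP2 samples, in F and in M. It had 74.8, 80.4, 85.3, 88.5 and 92.8 CPM in WT CP2 M and 67.8, 70.9, 71.0, 71.1 and 72.8 CPM in KO CP2 M, without overlap. In F it had 76.9, 81.9, 89.2, 99.98 and 109 CPM in WT CP2 and 74.6, 77.1, 79.3, 80.6 and 84.0 CPM in KO CP2, with overlap, and the mean log2 fold change was -0.23 (SE 0.053, adjusted p = 0.00267). Kcnk4 (TRAAK), a mechanically and lipid-gated leak channel, ranged over 13.4 to 16.6 CPM in WT CP2 M and 7.41 to 12.5 CPM in KO CP2 M, with 10.3 to 17.5 and 6.85 to 14.7 CPM in the F groups. The M groups did not overlap and the F groups did. Its log2 fold change was -0.50 (SE 0.12, adjusted p = 0.00564). Of the auxiliary subunits, Kcnab2 (log2 fold change -0.01, adjusted p = 0.921) and Kcnip3 (-0.01, adjusted p = 0.974) had values near 0.

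**Figure D4:**
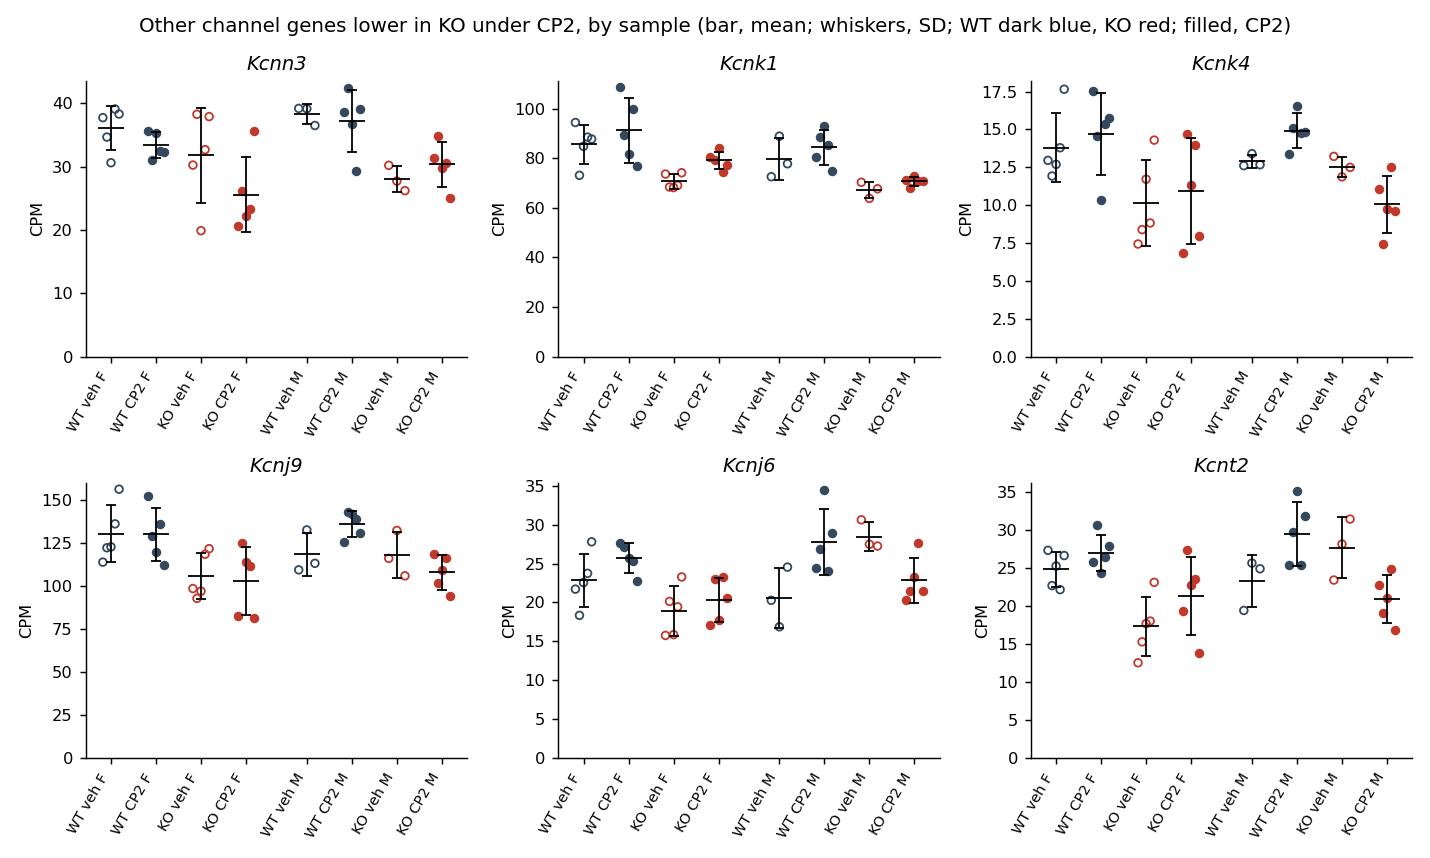
CPM by sample for Kcnn3, Kcnk1, Kcnk4, Kcnj9, Kcnj6 and Kcnt2 in the 8 groups (3 or 5 points each); open symbols are vehicle, filled symbols CP2, WT dark blue and KO red, with mean (bar) and SD (whiskers). The KO CP2 M points of Kcnk1 lie at 67.8 to 72.8 CPM, below the WT CP2 M points at 74.8 to 92.8 CPM.

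Without L201 and L233, 15 channel genes were lower and 0 higher in KO under CP2, and 11 of the 14 were kept. Counts from fits that left out samples, here and below, are given without the share of all genes called in the same fit. A changed count can therefore also be a change in calls over all genes. Kcnf1 (adjusted p = 0.0546) and Kcnn3 (adjusted p = 0.0543) were among those no longer called, at log2 fold changes of -0.34 and -0.27, and Kcna2, Kcnc1 and Kcnc2 were among those called instead. Over 36 fits that each left out 1 sample, 12 of the 14 genes were called every time and Kcnn2 28 times. Without KO CP2 M L291, 13 channel genes were called. All 3 cerebellar markers were higher in KO in this comparison. None of the 4 general neuron markers and none of the 5 excitatory neuron markers was called in this comparison, and Vip, 1 of 6 inhibitory neuron markers, was lower. Gfap, Mbp, Csf1r, P2ry12 and Wfs1 were higher, each from a list of 5 or 6 markers of astrocytes, oligodendrocytes, microglia or hippocampal CA neurons. In M the summed level of the 6 astrocyte markers was 4994 to 6050.2 CPM in KO CP2 and 4104 to 4914 CPM in WT CP2. That of the 5 microglial markers was 251.8 to 322.4 against 200.5 to 250.3 CPM. In F both sums overlapped between KO CP2 and WT CP2. They were 3836 to 5538 against 4351 to 4850 CPM for astrocytes, and 235.8 to 318.9 against 240.7 to 280.5 CPM for microglia. The part of these markers in the channel results was not tested.

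When F and M were tested apart, M gave 1 channel gene higher and 10 lower, beside 9.99% of all genes called, 4.75% higher and 5.24% lower. F gave 0 called genes by edgeR, beside 2.00% of all genes, and 2 by DESeq2. At an unadjusted p under 0.05 there were 16 channel genes, beside 15.7% of all genes. The difference of the KO effect between F and M was called for 0 channel genes, beside 0.820% of all genes. An unadjusted p under 0.05 was reached by 9 channel genes, beside 14.2% of all genes. No channel gene was thus shown to differ between F and M in its response. Outside the 14 genes called in the mean of F and M, M also called Kcnh4, an Elk-type voltage-gated subunit, and Kcnc1 as lower. Kcnh4 had 8.57, 8.83, 10.99, 11.9 and 15.7 CPM in WT CP2 M and 4.16, 5.08, 5.09, 6.53 and 7.09 CPM in KO CP2 M, a log2 fold change of -1.0 (SE 0.31, adjusted p = 0.0379). The only gene that was higher was Kcnh6, encoding the ERG-type subunit Kv11.2, with 2.64, 2.85, 3.25, 3.44 and 3.48 CPM in WT CP2 M and 3.76, 4.36, 4.58, 5.07 and 5.51 CPM in KO CP2 M, and a log2 fold change of 0.57 (SE 0.16, adjusted p = 0.0165). Neither gene's groups overlapped in M; both were named because the M test called them, after their values were seen. The share of counts outside annotated genes was 5.18% to 9.06% in KO CP2 M and 9.05% to 13.2% in WT CP2 M, and with that share in the model 5 channel genes were called in M. Leaving out KO CP2 M L291 or L299 gave 5 calls and L292 gave 6, and leaving out WT CP2 M L262 or L263 gave 5 and 4.

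The same genotypes were compared with vehicle in other mice. In the mean of F and M the median log2 fold change of the channel genes was -0.07, beside 0.02 over all genes. Over all genes with a mean of at least 1 CPM that median was -0.02. Negative values were found for 53 of the 85, beside 46.5% of all genes. The median was -0.19 in F alone and 0.01 in M alone. Averaged over F and M, 0 channel genes were higher and 7 lower in KO, beside 6.67% of all genes called, 2.87% higher and 3.80% lower. The 7 were Kcnk1, Kcnk12 and Kcnk13 of the two-pore class (3 of 12), Kcna6 and Kcnc1 of the voltage-gated class (2 of 38), the Kir2.2 gene Kcnj12 (1 of 13) and the BK subunit gene Kcnmb1 (1 of 14). Kcnk1 was thus called lower in KO both with vehicle and under CP2, 2 comparisons that share no sample. With vehicle, Kcnk1 had 73.1, 84.8, 87.8, 88.5 and 94.4 CPM in WT F and 68.2, 68.4, 69.1, 73.6 and 74.2 CPM in KO F, with overlap. In M it had 72.6, 77.8 and 88.9 CPM in WT and 63.8, 67.7 and 70.3 CPM in KO, without overlap, and the mean log2 fold change was -0.26 (SE 0.061, adjusted p = 0.00682).

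Kcnk13, the two-pore channel THIK-1 that microglia carry, had 12.6, 12.9 and 14.8 CPM in WT vehicle M and 6.83, 8.57 and 9.43 CPM in KO vehicle M, without overlap. In F it had 10.1, 10.8, 12.9, 13.3 and 13.4 CPM in WT and 6.37, 9.66, 9.97, 9.98 and 11.2 CPM in KO, with overlap, and the mean log2 fold change was -0.53 (SE 0.12, adjusted p = 0.00502). The summed level of the 5 microglial markers was 181.8 to 276.3 CPM in KO and 235.0 to 276.8 CPM in WT in F, and 216.3 to 266.2 against 224.1 to 245.1 CPM in M, and 1 of the 5, Tmem119, was called lower; its part in the Kcnk13 result was not tested. The related gene Kcnk12 (THIK-2) had a log2 fold change of -0.35 (SE 0.092, adjusted p = 0.0153). Kcnc1, the Kv3.1 gene of fast-spiking neurons, lay at 264 to 282.1 CPM in WT vehicle M and 218 to 245 CPM in KO vehicle M, with 199 to 277.4 and 188 to 230.3 CPM in F and a mean log2 fold change of -0.25 (SE 0.064, adjusted p = 0.0142). Kcna6 (Kv1.6) had a log2 fold change of -0.32 (SE 0.085, adjusted p = 0.0176), and Kcnj12 one of -0.42 (SE 0.12, adjusted p = 0.0287). Kcnmb1 was at low abundance, with 1.56, 1.69, 2.15, 2.21 and 2.39 CPM in WT F and 0.378, 0.892, 1.27, 1.41 and 1.61 CPM in KO F, and a log2 fold change of -0.89 (SE 0.28, adjusted p = 0.0441). Kcnj10 was lower by value but varied within groups, with 243, 317, 325, 333 and 416 CPM in WT F and 147, 245, 248, 259.2 and 372 CPM in KO F, and was not called (log2 fold change -0.40, adjusted p = 0.135).

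In F alone, 2 channel genes were higher and 6 lower in KO with vehicle, beside 4.96% of all genes called, 2.02% higher and 2.94% lower. In M alone 0 were called by edgeR, beside 0.516% of all genes, and 1 by DESeq2. At an unadjusted p under 0.05 M had 17 channel genes, beside 12.2% of all genes. The F minus M difference of the KO effect with vehicle was called for 0 channel genes, beside 0.102% of all genes. Its unadjusted p was under 0.05 for 15 channel genes, beside 8.37% of all genes. The largest of the 6 differences was in Kcnt2, at a log2 fold change of -0.52 (SE 0.14, adjusted p = 0.0294), and the smallest adjusted p was that of Kcnj3, at -0.36 (SE 0.083, adjusted p = 0.00977). Kcnk1, Kcnk12 and Kcnab2 were also lower. Kcnk9, the acid-sensitive leak channel TASK-3, was higher, with 85.5, 89.7, 91.6, 92.3 and 103 CPM in WT vehicle F and 108, 115, 117, 128 and 130.4 CPM in KO vehicle F, and a log2 fold change of 0.37 (SE 0.11, adjusted p = 0.0438). Kcnh6 was also higher, with 2.11, 2.95, 3.34, 3.42 and 4.11 CPM in WT and 4.13, 4.26, 4.67, 4.79 and 4.99 CPM in KO, and a log2 fold change of 0.52 (SE 0.16, adjusted p = 0.0494). For both genes the groups did not overlap, and Kcnj3, Kcnk9 and Kcnh6 were named after their values were seen.

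Beside these vehicle results, the share of counts outside annotated genes also differed by genotype, averaging 9.24% ± 2.56 (SD, n = 5) for KO and 5.99% ± 0.74 (SD, n = 5) for WT among the F mice given vehicle, and 12.1% ± 0.88 (SD, n = 3) and 10.2% ± 1.22 (SD, n = 3) among the M mice. With that share as a covariate 0 channel genes were called with vehicle, in the mean of F and M and in F. Under CP2 the count in the mean was 14, of which 13 were shared. Among CP2 mice the share averaged 7.54% for KO and 6.02% for WT in F, and 7.33% and 11.5% in M. Its difference thus had opposite directions in F and M under CP2, and the same direction with vehicle. In M alone the count under CP2 was lower with the covariate, as given above. The percentage of all genes called with this covariate is not reported here. In M the summed excitatory neuron markers were 1440 to 1786 CPM in KO vehicle and 929.6 to 1128 CPM in WT vehicle. The summed thalamic markers were 147.2 to 193.2 and 307.4 to 367.5 CPM, and neither sum overlapped. In F both overlapped, at 764.3 to 1336 CPM in KO vehicle and 959.5 to 1433 CPM in WT vehicle for excitatory neurons. The thalamic sums in F were 167.7 to 455.2 and 220.8 to 357.6 CPM. The part of these markers was not tested. Without KO vehicle M L322 the mean comparison called 3 channel genes, without WT vehicle M L300 it called 4, and without KO CP2 F L234 or KO vehicle F L283 it called 11. In F alone the count fell to 1 without KO vehicle F L279 or WT vehicle F L296, to 2 without L246, to 3 without L281, L252, L278 or L295, and to 5 without L282, KO vehicle M L319, WT CP2 M L263 or WT vehicle M L285, and it rose to 13 without L283. Over the 36 fits that left out 1 sample, Kcnmb1 was called 20 times in the mean comparison, and in F Kcnh6 14 times.

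**Figure D5:**
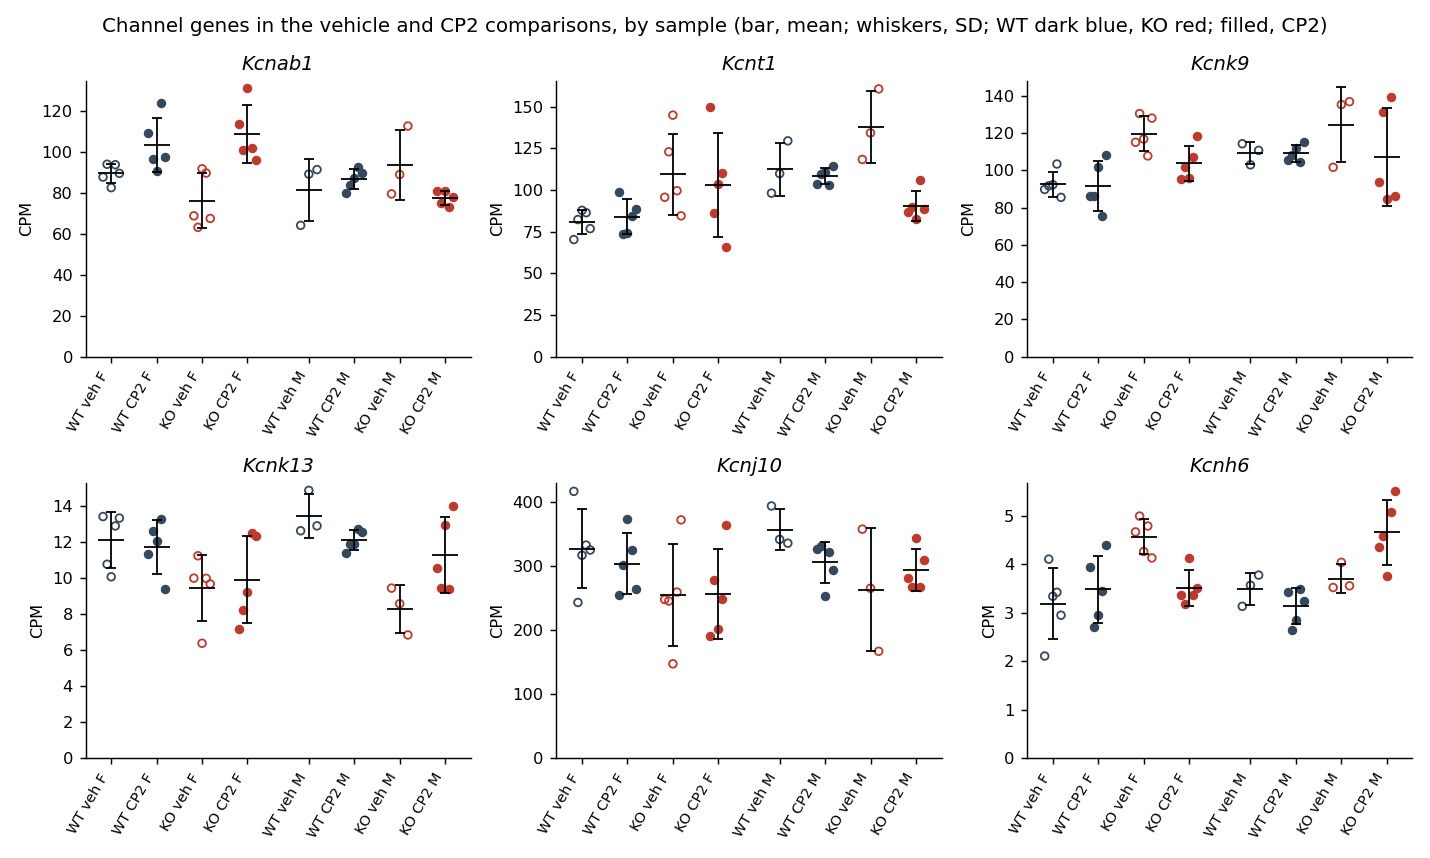
CPM by sample for Kcnab1, Kcnt1, Kcnk9, Kcnk13, Kcnj10 and Kcnh6 in the 8 groups (3 or 5 points each); open symbols are vehicle, filled symbols CP2, WT dark blue and KO red, with mean (bar) and SD (whiskers). Kcnab1 lies at 96.1 to 131 CPM in KO CP2 F and at 63.1 to 91.7 CPM in KO vehicle F, and Kcnk9 at 108 to 130.4 CPM in KO vehicle F against 85.5 to 103 CPM in WT vehicle F.

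CP2 itself was compared with vehicle within each genotype. In WT, 0 channel genes were called by edgeR or DESeq2, beside 0.00% of all genes by edgeR. At an unadjusted p under 0.05 there were 5 channel genes, beside 4.03% of all genes. Kcnj6 had a log2 fold change of 0.30 and was among the genes with the smallest p. In KO, averaged over F and M, 0 channel genes were called by edgeR, beside 3.91% of all genes, and 1 by DESeq2. At an unadjusted p under 0.05 there were 10 channel genes, beside 18.1% of all genes. Kcnt1 and Kcnma1 had the smallest p, at log2 fold changes of -0.35 (adjusted p = 0.0752) and -0.19 (adjusted p = 0.0853). Without L201 and L233, Kcnt1 was called in this comparison at -0.49 (adjusted p = 0.00345).

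In KO F, 1 channel gene was called, beside 0.0859% of all genes, 0.0547% higher: Kcnab1, the Kvbeta1 subunit that speeds inactivation of Kv1 channels. It had 63.1, 67.4, 68.7, 89.6 and 91.7 CPM in KO vehicle F and 96.1, 101, 102, 114 and 131 CPM in KO CP2 F, so every CP2 sample lay above every vehicle sample, and a log2 fold change of 0.51 (SE 0.10, adjusted p = 0.0387). Without L201 and L233 the log2 fold change was 0.52 and the adjusted p 0.0687, and it was called in 24 of the 36 fits that left out 1 sample. In M the values were 79.4, 88.9 and 113 CPM with vehicle and 73.0, 74.8, 77.9, 80.7 and 81.0 CPM with CP2. The F minus M difference of the CP2 effect in KO was called for this gene alone among the 85, at 0.79 (SE 0.16, adjusted p = 0.0185), beside 0.691% of all genes. Without L201 and L233 its adjusted p was 0.0407.

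In KO M, 2 channel genes were lower with CP2 and 0 higher, beside 5.10% of all genes called, 2.74% lower and 2.36% higher. Kcnt1 had 118, 134 and 161 CPM in KO vehicle M and 82.4, 86.7, 88.5, 89.7 and 106 CPM in KO CP2 M, with a log2 fold change of -0.61 (SE 0.17, adjusted p = 0.0309). The groups did not overlap. In F, Kcnt1 had 84.5, 95.7, 99.6, 123 and 145 CPM with vehicle and 66.1, 86.0, 104, 110.2 and 149.9 CPM with CP2, where L201 was the highest, and its log2 fold change was -0.09 (adjusted p = 0.896). The difference between F and M was not called for Kcnt1 (adjusted p = 0.267). Leaving out L266, L291 or L299 of KO CP2 M or L322 of KO vehicle M gave 0 calls in KO M, L292 or L319 gave 1, and L298 or L310 gave 3; the KO vehicle M group that these calls use had the highest mean share of counts outside genes.

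An interaction term tested whether the response to CP2 differed between KO and WT. This term was called for 0 channel genes by edgeR and by DESeq2, beside 0.715% of all genes by edgeR. At an unadjusted p under 0.05 there were 10 channel genes, beside 14.6% of all genes. Kcnj6 had the smallest p, at a log2 value of -0.41 (adjusted p = 0.109), followed by Kcng3 at -0.67 (adjusted p = 0.147). Without L201 and L233, Kcnt1 was called at -0.49 (adjusted p = 0.0494). The 14 genes that were lower in KO under CP2 are therefore not shown to depend on CP2. With vehicle, 10 of the 14 had negative log2 fold changes in KO, the lowest at -0.32 for Kcnn3, while Kcng3, Kcnj6 and Kcnn2 had values of 0.07, 0.10 and 0.01; none of these 4 genes was called there.

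Between F and M over the 4 genotype and treatment groups, 1 channel gene was called, beside 10.3% of all genes, 5.66% lower in F. Kcnt1 was lower in F, with a log2 fold change of -0.25 (SE 0.079, adjusted p = 0.0420), and Kcna5, a Kv1 subunit, had the next smallest p at 0.41 (adjusted p = 0.0575). With the share of counts outside genes in the model the Kcnt1 value was 0.05 (adjusted p = 0.865), and it was called in 10 of the 36 fits that left out 1 sample. Without L201 and L233 5 genes were called, Kcna5, Kcnc1, Kcnk1, Kcnk2 and Kcnt1.

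Lists of channel partners, potassium transporters and other ion channels were counted in the same comparison of KO with WT under CP2, in which 11.6% of all genes were called, 5.54% higher and 6.07% lower. Of 17 proteins that bind potassium channels, Abcc8, the sulfonylurea receptor of ATP-sensitive channels, was lower in KO at a log2 fold change of -0.32 (SE 0.082, adjusted p = 0.00786), and Amigo1, a membrane protein that binds voltage-gated channels, at -0.22 (SE 0.045, adjusted p = 0.000833); 0 were higher, and these 2 of 17 are near the share of all genes called in either direction. Among 10 genes of potassium transport, 2 were lower and 1 higher: the cotransporter gene Slc12a5 was lower (log2 fold change -0.18, adjusted p = 0.0111) and the sodium pump subunit gene Atp1b3 was higher (0.15, adjusted p = 0.0448). A further list took 44 genes by a sodium, calcium or HCN channel symbol (Scn, Cacn or Hcn), auxiliary subunits included. Of these, 0 were higher and 7 lower: Cacna1c, Cacna1h, Cacna1i, Cacnb3, Cacng3, Scn3b and Scn8a. Their median log2 fold change was -0.10, next to -0.09 for the potassium channel genes and 0.01 for all genes. With vehicle, Amigo1 was again lower in KO (-0.16, adjusted p = 0.0490), while Abcc8 was not called (-0.05, adjusted p = 0.828). The Kv4 partner gene Dpp10 was higher with vehicle (0.26, adjusted p = 0.0370).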

How the data were processed

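The deposited table holds raw read counts per Ensembl gene for 36 brain samples, and all its sample columns matched a sample title. Per the submitters' processing notes, STAR, HTSeq and GRCm39 were used, with no versions, and strandedness is not given in the sources used here. Its 5 summary rows, 12.0% to 19.6% of a sample's counts, were left out of library sizes. GENCODE M21 (GRCm38) gave symbols for 52073 of 56980 genes (91.4%), biotypes and union exon lengths, and no coordinates. RefSeq gave promoter windows for 66 of the 91 genes.

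Counts were fitted in 1 model of 36 samples and 8 groups by the robust quasi-likelihood test of edgeR 4.0.16 (R 4.3.3), after its filterByExpr filter and TMM scaling. Averages weight F and M equally. P-values were Benjamini-Hochberg adjusted over 25601 genes within each of 17 contrasts and called under 0.05. Standard errors are the absolute log2 fold change over the square root of F. CPM uses TMM library sizes. The code was tested on simulated data. Depth was 46124548 to 88559920 counts in genes; the spread between samples includes counting error.

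Alternatives were DESeq2 1.42.0, RLE scaling, no filter, a covariate (share of counts outside genes, hippocampal CA score or striatal score), each sample left out, and L201 with L233 left out, which was added after seeing the data. Named genes were the 6 called genes with the largest change each way with a mean of at least 1 CPM in each averaged contrast, or the 2 with the smallest p; the 2 highest per class; and 16 textbook genes. Others named were chosen after their values were seen. Some genes that the rule or a count includes are not reported here. The genes, lists and markers were chosen with earlier results of these data known. The replicate name in the titles differs in every sample, so no samples were paired.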

Additional observations from a re-analysis of the deposited data

Results flagged for a closer look

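A sample was far from the rest of its group, by Dixon's gap ratio, in 13 of 240 checks of named genes in groups of 5; chance flags about 1 in 20. The lowest samples were Kcna1 in KO CP2 F L234 at 69.1 CPM, Kcna2 in WT vehicle F L277 at 248 CPM, Kcna6 in WT CP2 F L311 at 63.5 CPM, Kcnf1 in KO vehicle F L279 at 64.4 CPM and Kcnk2 in WT CP2 M L262 at 39.9 CPM. The highest samples were Kcna2 in KO vehicle F L283 at 329 CPM, Kcna5 in WT CP2 F L228 at 11.5 CPM and in KO CP2 M L291 at 7.39 CPM, Kcnc1 in KO CP2 M L298 at 256 CPM, Kcnd2 in WT vehicle F L252 at 109.7 CPM, Kcng1 in KO CP2 F L234 at 35.7 CPM, Kcnj4 in KO CP2 F L227 at 175 CPM and Kcnv1 in WT vehicle F L296 at 92.7 CPM. L234 was far from its group for 2 genes, in opposite directions.

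The effect of CP2 in KO differed between F and M for Kcnab1, with a difference of log2 fold changes of 0.79, a standard error of 0.16 and an adjusted p of 0.0185 by edgeR, and the call was kept in 34 of 36 fits that left out 1 sample.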

How the results depend on the processing

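The comparison of KO with WT under CP2 called 14 channel genes averaged over F and M. Every alternative run called 12 to 17, and these were not always the same genes. Counts under an alternative, here and above, stand without the share of all genes called in the same alternative. A change in such a count can therefore also be a change in calls over all genes. The comparison of KO with WT with vehicle called 7 genes averaged over F and M, 12 with DESeq2, 14 with the striatal score and 0 with the share of counts outside genes, and 3 to 11 when 1 sample was left out. In F it called 8, then 4 without the filter, 5 with the CA score, 0 with the share outside genes and 1 to 13 without 1 sample. In M it called 0, then 1 with DESeq2, 1 with the CA score, 2 with the striatal score, 1 without L201 and L233, and 0 to 1 without 1 sample. Under CP2, F called 0, then 2 with DESeq2, 2 with the striatal score and 0 to 2 without 1 sample, and M called 11, then 5 with the share outside genes and 4 to 12 without 1 sample. For CP2 in KO the mean called 0, then 1 with DESeq2, 2 with the striatal score, 1 without L201 and L233 and 0 to 3 without 1 sample. In KO F it called 1, then 2 with DESeq2, 0 without L201 and L233 and 0 to 2 without 1 sample, and in KO M 2, then 4 with DESeq2, 1 without the filter, 0 with the share outside genes and 0 to 3 without 1 sample. The interaction called 0, then 1 without L201 and L233 and 0 to 1 without 1 sample. F against M called 1, then 4 with DESeq2, 0 without the filter, 0 with the share outside genes, 4 with the CA score, 5 without L201 and L233 and 0 to 3 without 1 sample. CP2 in WT called 0 throughout. Of the single-gene values that were compared, 1 called value changed sign: Kcnt1 between F and M, at 0.0546 with the share outside genes. The cause was not tested. Of the other single-gene values compared, 144 lost and 48 gained a call under an alternative, and 4967 did neither. Values that were not called could also change sign. For CP2 against vehicle in WT F, Kcnj4 had a log2 fold change of 0.19, and its lowest value under the alternatives was -0.043. No paired analysis was possible because the numbers in the titles differ in every sample. With 3 samples in each M vehicle group, a call missing there is no sign that a gene did not differ, and genes near 1 CPM rest on few counts.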
